A study of Homo sapiens with 6 samples.

Results

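The relaxins are small secreted hormones built like insulin, and their receptors are G protein-coupled receptors at the cell surface. Members of this family, 6 genes, were followed in 22Rv1-ABHD5 cells: RLN1, RLN2, INSL4 and INSL6, which encode hormones, and RXFP1 and RXFP2, which encode receptors. They are 6 of the 27470 genes of the count table, found by their symbols. The family was chosen by the rise of RLN2 with doxycycline (Dox) in these same 6 libraries, so the values of its members are described here and not tested. Of the 6 members, 1, RLN2, passed the filter on low counts that kept 12233 genes for testing, and it passed through its counts with Dox.

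22Rv1 is a human castration-resistant prostate cancer cell line, and 22Rv1-ABHD5 cells carry ABHD5, the coactivator of the triglyceride lipase ATGL, on a lentiviral vector whose promoter is switched on by Dox. Both groups carry the transgene and were selected for it with a drug: 3 libraries came from cells without Dox, which the labels call control, and 3 from cells with Dox, which the labels call overexpressing ABHD5, with 48 h of culture. The passage of the paper's methods on sequencing does not state the Dox concentration for these libraries. None of these libraries came from parent cells with Dox, so Dox and ABHD5 cannot be told apart. The paper states, without showing the data, that the effect of Dox on parent 22Rv1 growth was negligible. Poly(A)-primed 3ʹ libraries were sequenced, so reads mark transcript ends and do not scale with transcript length. Nothing in the labels says that the replicates were separate cultures, so p-values measure only the spread between these libraries, which may be technical.

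As background, the relaxins are made as precursors that are cut into an A and a B chain joined by disulfide bonds. RLN2 encodes the main circulating relaxin, known for loosening connective tissue and widening vessels in pregnancy, and it acts on RXFP1, which raises cAMP and also feeds the PI3K and MAPK arms. RLN1 is its closest copy in the human genome, INSL4 and INSL6 are insulin-like hormones of placenta and testis, and RXFP2 is the receptor of INSL3. The prostate makes relaxin and secretes it into seminal plasma.

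RLN2 (ENSG00000107014.9) lies on the minus strand of chromosome 9 at chr9:5299864-5304716 of hg38, and RLN1 (ENSG00000107018.8) lies beside it on the same strand at chr9:5334930-5339876. No other annotated gene overlaps either of them in GENCODE 44. INSL4, at chr9:5231419-5235304, and INSL6, at chr9:5123880-5185647, belong to the same cluster, and INSL6 overlaps JAK2 on the opposite strand. RXFP1 lies at chr4:158315311-158653372 and RXFP2 at chr13:31739526-31803389. RLN2 has 2 transcription starts in RefSeq, 488 bases apart. Its GENCODE transcripts RLN2-201, of 928 bases, and RLN2-202, of 733 bases, both hold the last-exon bases from 5299876 to 5300444. The counts are per gene and do not say which transcript or start was used.

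The 250 bases before the starts of RLN2 and RLN1 are shown because the genes are copies of each other and their counts differed so much with Dox. They are RefSeq sequences of GRCh38.p14, written 5ʹ to 3ʹ on the minus strand and ending at the base before the start. Capitals mark AGAACA, the half-site letters of steroid hormone receptors. The first RLN2 window is chr9:5304717-5304966, the RLN1 window is chr9:5339877-5340126, and the window of the second RLN2 start is chr9:5304229-5304478.
RLN2, first start: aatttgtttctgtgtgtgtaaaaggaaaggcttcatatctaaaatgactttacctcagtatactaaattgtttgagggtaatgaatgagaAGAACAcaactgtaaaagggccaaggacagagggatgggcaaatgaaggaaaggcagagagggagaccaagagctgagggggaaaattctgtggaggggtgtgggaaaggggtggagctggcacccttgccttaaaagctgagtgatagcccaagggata
RLN1: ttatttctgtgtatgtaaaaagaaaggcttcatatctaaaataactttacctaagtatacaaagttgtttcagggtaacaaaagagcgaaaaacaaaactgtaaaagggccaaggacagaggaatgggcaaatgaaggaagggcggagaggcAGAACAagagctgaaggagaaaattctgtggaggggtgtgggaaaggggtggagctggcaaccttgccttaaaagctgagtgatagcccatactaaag
RLN2, second start: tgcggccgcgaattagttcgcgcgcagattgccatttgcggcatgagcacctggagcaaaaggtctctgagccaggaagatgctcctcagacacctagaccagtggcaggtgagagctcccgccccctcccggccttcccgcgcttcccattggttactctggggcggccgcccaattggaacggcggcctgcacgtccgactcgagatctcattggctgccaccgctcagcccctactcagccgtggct

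The window of the first RLN2 start matched that of RLN1 at 221 of 247 aligned bases (89.5%), and the window of the second start at 113 of 230 (49.1%). AGAACA was found 160 bases before the first RLN2 start and 98 bases before the RLN1 start, so not at matching positions, and not before the second RLN2 start. Searched on both strands, these letters occurred in 12.4% of the 35116 promoter windows of the table. They occurred in windows of 5 of the 10 family genes that have one, which were RLN1, RLN2, INSL4, RXFP1 and RXFP2. Here and below, the share over the table counts windows and the family count is of genes, so they are not like for like. RLN2 and RXFP1 have more than 1 window, and those of RXFP1 overlap and hold the same site. The TATA box letters TATAAA, present in 10.7% of all windows, occurred in windows of 2 family genes, RLN3 and INSL5. TGACGTCA (the cAMP response element, 1.65% of all windows), TGTTTAC (a forkhead site, 2.98%) and CACGTG (an E-box, 6.34%) occurred in 0 family windows on either strand. The letters searched were chosen with the sequences in view. A match is a description of the letters, and a missing match says only that they are not in the window.

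The 6 libraries held 3394672 to 7271771 counts on genes, and replicate 3 was the deepest in each condition. ABHD5, on chr3:43690108-43734371, had 63.5, 58.0 and 62.8 CPM (counts scaled to a common library size after TMM normalization) in replicates 1, 2 and 3 without Dox and 126, 131 and 91.7 with Dox. The libraries with Dox all lay above those without it. On the log2 scale it was higher by 0.91 (SE 0.15; adjusted p = 1.978e-04). Adjusted p-values here and below come from edgeR's quasi-likelihood fit, corrected by Benjamini-Hochberg over the 12233 genes. ABHD5 overlaps ANO10 on the genome, and transgene reads without the native 3ʹ end may be missing from its count.

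Without Dox, 1, 1 and 8 reads were counted on RLN2 in replicates 1, 2 and 3. With Dox, 194, 184 and 918 reads were counted. The gene thus went from 8 reads or fewer to 184 or more in each library, and the lowest library with Dox stood far above the highest without Dox. On the CPM scale the libraries without Dox had 0.261, 0.310 and 1.40, and those with Dox had 42.2, 51.2 and 121. The means were 0.656 ± 0.642 CPM without Dox and 71.3 ± 42.9 CPM with Dox (SD, n = 3 each). The fitted log2 fold change was 6.50 (standard error 0.51), a 90.7-fold difference. Summed over libraries, 10 reads stood against 1296, a ratio of 105 after scaling, with an exact 95% binomial interval of 56.8 to 219. Intervals and limits here pool the reads of a condition's libraries, so they leave out the spread between libraries. They also take each read as independent, and without molecular identifiers, reads copied from 1 molecule were not told apart. Because this contrast chose the gene, no test is attached to the difference. For the same reason nothing is read from the background: 25.5% of the 12233 tested genes differed at an adjusted p under 0.05, 11.9% were higher and 13.7% lower, and in 19% each library with Dox exceeded each without it.

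**Figure D1:**
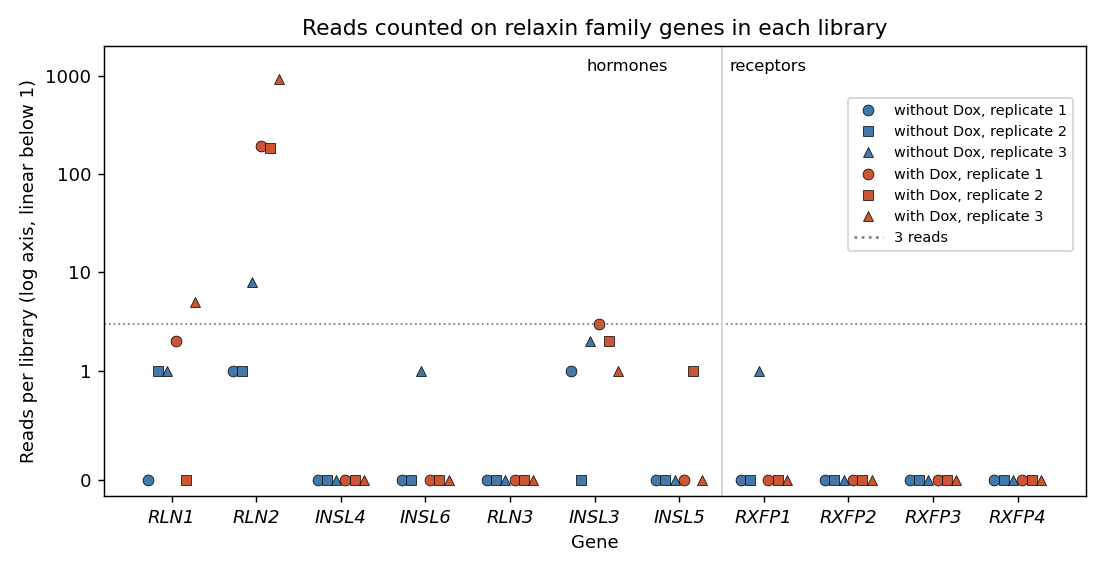
Reads counted on each relaxin family gene (x axis, hormones then receptors) in each of the 6 libraries, on a y axis that is logarithmic above 1 read and linear below it. Points are single libraries, blue without Dox and orange with Dox, and the dotted line is 3 reads. RLN2 rises from 1, 1 and 8 reads to 194, 184 and 918, and each other gene has 5 reads or fewer in every library.

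By fitted log2 fold change RLN2 ranked 10 among the 12233 genes tested, just below NPY with 6.86 and TMEM196 with 7.23 and just above CRISP3 with 6.03 and GPD1 with 5.97. In mean level, on the CPM scale of 3ʹ reads, 0.188% of the tested genes lay below RLN2 without Dox and 72.8% with Dox. RLN2 thus stood at the bottom of the tested genes in one condition and in their upper part in the other. The filter removed genes low in both conditions, and RLN2 passed it through its counts with Dox. Its place without Dox therefore follows from the filter and is not a result about the gene. Of the 27470 genes of the table, 8114 had no count in any library and were not among those compared.

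The libraries of a condition differed among themselves. With Dox, RLN2 in replicate 3 was 2.58 times the mean of the other libraries of its condition, while ABHD5 in replicate 3 was 0.714 times theirs. The library with the most RLN2 therefore had the least ABHD5 among those with Dox. Without Dox, too, replicate 3 had the most RLN2, at 4.89 times the mean of the other libraries, though from 8 reads. The ratio of CPM plus 0.5, replicate 3 with Dox over the mean of replicates 1 and 2, was taken for 9420 tested genes. Each had a mean of at least 50 counts. Only 2 reached the ratio of RLN2: RLN2 itself, with 2.56, and PHGR1, with 2.66. PHGR1, singled out after its values were seen, had only 10, 2 and 34 reads with Dox. It reached the mean of 50 counts through its 168, 167 and 232 reads without Dox. The median ratio over the 9420 genes was 1.01. RLN2's log2 fold change was 5.86 without replicate 3 with Dox and 7.86 without replicate 3 without Dox.

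**Figure D2:**
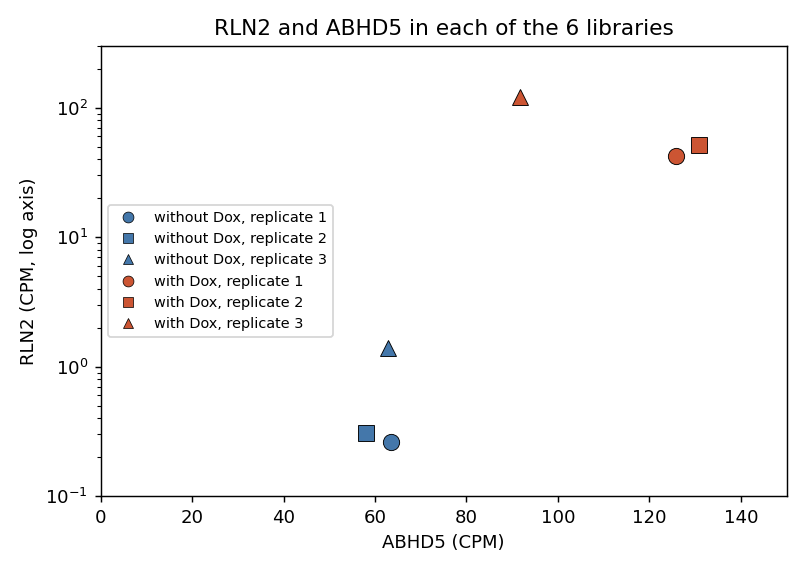
RLN2 (y axis, CPM, logarithmic) against ABHD5 (x axis, CPM, linear from 0) in each of the 6 libraries, blue without Dox and orange with Dox, with a marker shape per replicate number. The conditions are apart on both axes, and among the libraries with Dox the one at 91.7 CPM of ABHD5 has the most RLN2, 121 CPM.

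RLN1, the neighbouring copy of RLN2, had 0, 1 and 1 reads without Dox and 2, 0 and 5 with Dox. The conditions overlapped, and 4 of its 9 reads lay outside the deepest library with Dox. Summed, 2 reads stood against 7, a ratio of 2.83 with an exact 95% interval of 0.539 to 27.9. That interval pools reads and leaves out the spread between libraries. On so few reads, whether RLN1 differed was not settled. With Dox, 7 of the 1303 reads on either copy were on RLN1, 0.537% (exact Clopper-Pearson 95% interval, 0.216 to 1.10). Without Dox, 2 of 12 were, 16.7% (2.09 to 48.4). With the reads of both copies added into 1 row, the fitted log2 fold change was 6.26 (standard error 0.49), from a mean of 0.818 to 71.7 CPM, so the rise of the pair was nearly that of RLN2.

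The likeness of the copies bears on how well their reads can be told apart. RLN2-201 and RLN1-201 matched at 802 of 915 aligned bases (87.7%), and the last 500 bases of RLN2-201 at 405 of 493 (82.2%). Of the 401 windows of 100 bases, the read length, in those last 500 bases, 0 were found exactly in RLN1 or in any other gene, and the same held for RLN1 windows. Laid against the other transcript without gaps, RLN2 windows had at least 3 and a median of 15 mismatches, and RLN1 windows at least 3 and a median of 25. With 10 or fewer mismatches there were 118 RLN2 windows and 61 RLN1 windows, and with 2 or fewer there were 0. The last window before the transcript end differed by 47 mismatches for RLN2 and by 59 for RLN1, again without gaps. The alignment of the last 500 bases of RLN2-201, which allowed gaps, matched at 82.2%, so such counts can overstate how far the copies differ. How the aligner placed reads with mismatches or gaps was not tested.

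**Figure D3:**
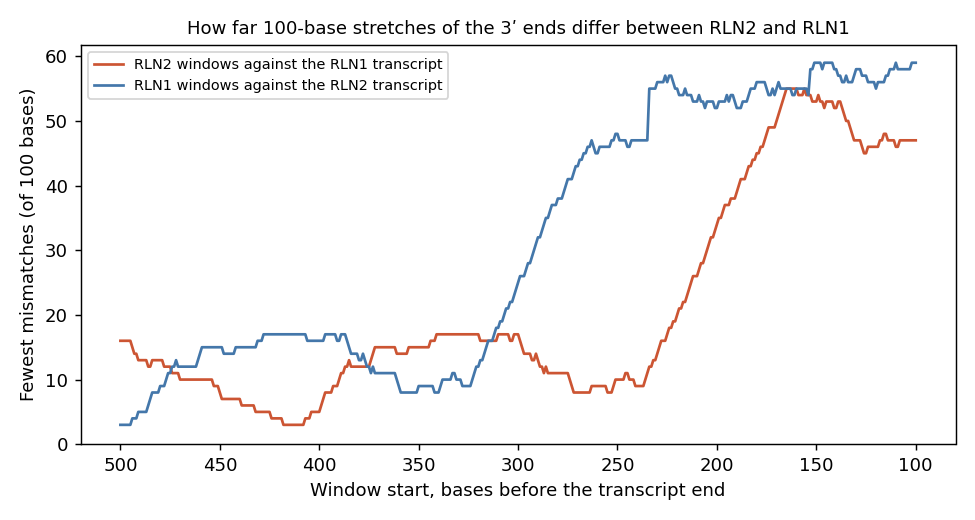
Fewest mismatches, in bases of 100 and counted without gaps, between each 100-base window of the last 500 bases of one transcript and the other transcript (y axis, from 0), against the start of the window in bases before the transcript end (x axis). The line of RLN2 windows runs from 3 to 55 mismatches and that of RLN1 windows from 3 to 59, and neither reaches 0.

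The other hormones were at or near 0. INSL4 had 0 reads in all 6 libraries. INSL6 had 1 read, in replicate 3 without Dox, and its locus overlaps that of JAK2, so that read is uncertain if strand was not used in counting. Of the hormones outside the members, RLN3, a relaxin of the brain, had 0 reads, INSL5, a gut hormone, had 1 read, in replicate 2 with Dox, and INSL3, the testis hormone that binds RXFP2, had 1, 0 and 2 reads without Dox and 3, 2 and 1 with Dox. None of these sat apart by condition. A gene with 0 reads in a condition could still have had up to 3, which is 0.235 CPM over the libraries without Dox and 0.190 CPM over those with Dox.

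The receptors were not detected with Dox. RXFP1, the receptor for relaxin, had 0, 0 and 1 reads without Dox and 0 reads with Dox, and RXFP2 had 0 reads throughout. RXFP3 and RXFP4, the receptors of RLN3 and INSL5, also had 0 reads throughout. At the limit of 3 reads, each of these receptors lay under 0.190 CPM with Dox, against 71.3 CPM of RLN2. In order of level with Dox, RLN2 stood alone, and RLN1, INSL3, INSL5 and the genes at 0 reads could not be ranked beyond counting error. Without Dox even RLN2, with 10 reads in all, was close to INSL3 with 3 and RLN1 with 2. In bulk RNA, fewer cells with a transcript and less of it per cell cannot be told apart, and RLN2 may have come from all or part of the cells.

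Prostate luminal markers were detected in both conditions, with a lower sum with Dox. The 7 luminal markers, KLK2, KLK3, HOXB13, KRT8, KRT18, FOLH1 and TMPRSS2, summed to 531 to 566 CPM without Dox and to 397 to 471 with Dox, and none was at or under 3 reads in every library. Of the 7, 3 fell: KLK2, a kallikrein gene of the prostate, with a log2 fold change of -1.69 (edgeR adjusted p = 0.00145), TMPRSS2, a membrane protease gene, with -1.06 (edgeR adjusted p = 0.00505), and the keratin gene KRT18 with -0.57 (edgeR adjusted p = 0.00189). The other 4 did not pass the threshold, with -0.30 for KLK3, -0.07 for HOXB13, -0.30 for KRT8 and 0.01 for FOLH1. The 4 neuroendocrine markers summed to 70.9 to 88.7 CPM without Dox and to 123 to 166 with Dox. CHGB, with a log2 fold change of 0.92 (edgeR adjusted p = 4.886e-04), and SYP, with 0.79 (edgeR adjusted p = 0.00147), carried that sum. CHGA and INSM1 were at 0 reads in every library. Leukocyte markers summed to 0.784 to 1.86 and 0.657 to 1.11 CPM, fibroblast markers to 4.96 to 9.43 and 6.12 to 9.98, basal markers to at most 0.261, and endothelial markers to 0. With Dox the luminal sum was thus lower and the neuroendocrine sum higher, while RLN2 was higher. KRT18 carried most of the fall of the luminal sum, from a mean of 248 CPM without Dox to 167 with Dox. HOXB13 and FOLH1 had means of 165 and 25.8 CPM without Dox and 157 and 26.8 with Dox. A link of either sum to RLN2 was not tested.

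The 5 genes named here had a profile over the 6 libraries closest to that of RLN2, by Pearson's r of log2(CPM + 0.5) among 9419 genes with a mean of at least 50 counts. They were SECTM1, with r of 0.999 and a log2 fold change of 1.66, NDFIP1 (0.999 and 0.34), TFAP2A-AS2 (0.998 and 1.29), EPPK1 (0.998 and 0.57) and SLC35D1 (0.997 and 1.91). The points are 6 libraries in 2 conditions that lie apart, and 693 genes had r above 0.9. The fold changes of the 5 genes were all smaller than that of RLN2.

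The genes beside RLN2 on chromosome 9 were compared next, to see whether the rise extended along the chromosome. Within 500000 bases, outside the family, the table holds 8 genes, of which 5 were tested, 1 was higher and 0 were lower with Dox, against 11.9% of all tested genes higher. PLGRKT, a plasminogen receptor gene 53255 bases away and the nearest tested, had a log2 fold change of -0.02 (edgeR adjusted p = 0.958). JAK2, a kinase of cytokine receptors, had 40.4 ± 3.82 CPM without Dox and 43.98 ± 5.25 with Dox (SD, n = 3 each), and its log2 fold change was 0.11. RIC1 and RCL1 had 0.42 and -0.28. None of these 4 passed the threshold, although RIC1 did under scaling by library totals alone.

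ERMP1, a peptidase gene of the endoplasmic reticulum 445116 bases away, was the neighbour that rose, from 45.4 ± 3.21 to 69.4 ± 12.3 CPM (SD, n = 3 each). On the log2 scale it rose by 0.62 (SE 0.15; edgeR adjusted p = 0.00627), and it kept the call in every alternative. ERMP1 overlaps RIC1 on the opposite strand, so their reads are uncertain if strand was not used. Between RLN2 and ERMP1 on the same side, the immune checkpoint ligand genes CD274, with 2, 0 and 2 reads without Dox and 4, 0 and 12 with Dox, and PDCD1LG2, with 0, 1 and 1 against 6, 1 and 2, were too low to test. The conditions overlapped for both genes.

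Within 1000000 bases the table holds 20 genes outside the family, of which 13 were tested. Of these 13, 5 were higher and 0 lower, against 11.9% of all tested genes higher and 13.7% lower. Beside ERMP1 these were AK3, a mitochondrial adenylate kinase gene (log2 fold change 0.76), KIAA2026 (0.36), CDC37L1 (0.45) and GLIS3, a zinc finger factor gene at 951472 bases (1.67, from 19.8 ± 1.68 to 63.3 ± 5.95 CPM). GLIS3 and AK3 kept their calls in each of 15 alternatives, and KIAA2026 and CDC37L1 each lost theirs in 7, with no filter, with DESeq2 and without 1 of 5 libraries. KIAA2026 kept its call without replicate 3 with Dox and CDC37L1 without replicate 3 without Dox, and the largest adjusted p was 0.127 and 0.185 (edgeR or DESeq2). AK3, KIAA2026 and GLIS3 overlap other genes on the opposite strand. SPATA6L, with 0, 0 and 1 reads without Dox and 5, 5 and 7 with Dox, did not pass the filter and was not tested. Its conditions did not overlap. Fitted without a filter, on these few reads, it had a log2 fold change of 3.44 (edgeR adjusted p = 0.043), above that of GLIS3. It overlaps SLC1A1 and PLPP6 on the opposite strand. The 4 other tested genes, PLPP6, CDC37L1-DT, RANBP6 and SLC1A1, had log2 fold changes between 0.06 and 0.36 and did not pass the threshold. No tested neighbour came near the log2 fold change of 6.50 of RLN2, the highest being that of GLIS3.

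**Figure D4:**
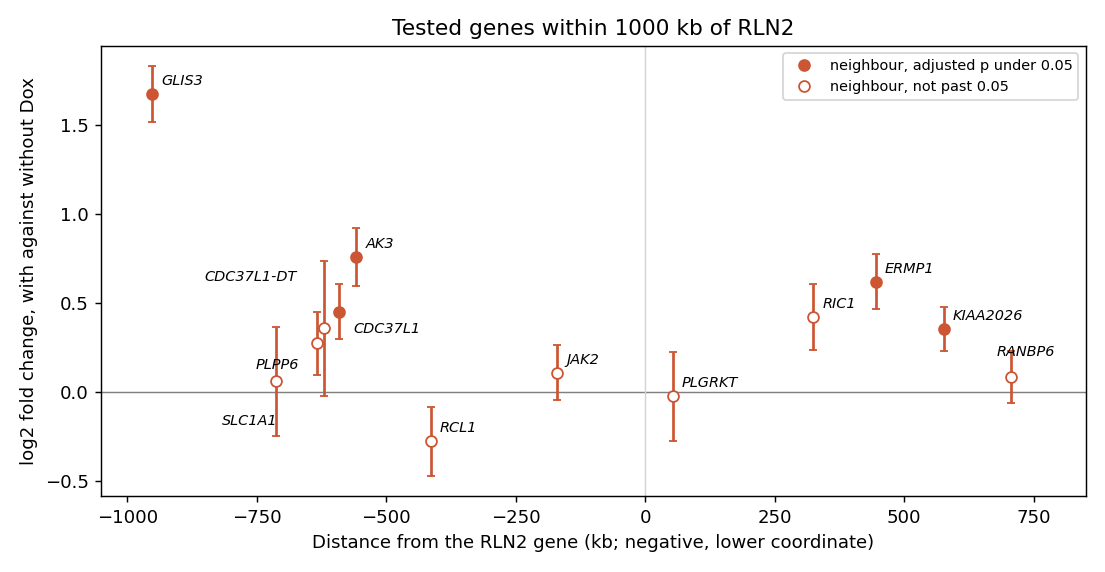
Log2 fold change with against without Dox (y axis, points with standard error bars) of the 13 tested genes within 1000000 bases of RLN2, against their distance from it in kb (x axis, negative at lower coordinates). Filled points passed an adjusted p of 0.05 and open points did not. GLIS3 is highest at 1.67, and the tested genes nearest to RLN2 lie around 0.

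The wider relaxin pathway was read from 7 lists of 140 genes, all in the table, of which 89 were tested. Of these, 14 were higher and 9 lower with Dox, 25.8% in all against 25.5% of all tested genes, so the lists together were at the background. By direction, 15.7% of the tested list genes were higher and 10.1% lower, against 11.9% and 13.7% of all tested genes. Scaled by library totals alone, the lists held 21 higher and 6 lower, and no called gene changed direction in any alternative. Their median log2 fold change was 0.07, and that of all tested genes was 0.016. RXFP1, the receptor at the head of this pathway, had 1 read in all.

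Relaxin is cut from its precursor by proprotein convertases. Of 8 listed processing enzymes, 3 were tested, 1 was higher and 0 were lower, against 11.9% of all tested genes higher and 13.7% lower. The carboxypeptidase gene CPE, whose product trims the basic residues left by the cut, had 145, 157 and 147 CPM in replicates 1, 2 and 3 without Dox and 282, 256 and 322 with Dox. The conditions did not overlap, and CPE was higher by 0.94 on the log2 scale (SE 0.13; edgeR adjusted p = 3.072e-05). FURIN, the general convertase, had 30.4 ± 0.871 CPM without Dox and 27.9 ± 5.998 with Dox (SD, n = 3 each; adjusted p = 0.665, edgeR), and PCSK7 had a log2 fold change of 0.51 (edgeR adjusted p = 0.155). The convertases of secretory granules were low: PCSK1 had 4, 3 and 9 reads without Dox and 1, 2 and 1 with Dox, and PCSK2 had 1 read in all. PCSK4, PCSK5 and PCSK6 had at most 34, 2 and 13 reads in a library and were not tested.

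Among the other ligands and receptors of the RXFP type, 5 listed, 1 was tested. LGR4, a receptor for R-spondins, had a log2 fold change of 0.56 and did not pass the threshold (edgeR adjusted p = 0.0543). LGR5, LGR6, C1QTNF6 and C1QTNF8, the last a reported ligand of RXFP1, had at most 2 reads in any library.

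Of 15 tested G protein and arrestin genes, 2 were higher and 2 lower (26.7%, against 25.5% of all tested genes). GNAS, the stimulatory subunit through which RXFP1 raises cAMP, went from 295 ± 25.0 to 493 ± 38.5 CPM (SD, n = 3 each). On the log2 scale this was 0.74 (SE 0.13; edgeR adjusted p = 2.998e-04). GNG7 had 0.71, and the arrestins ARRB1 and ARRB2, which end receptor signals, had -0.65 and -0.55. The calls of GNG7, ARRB1 and ARRB2 were each lost in 5 of 15 alternatives, with an adjusted p of at most 0.203, 0.128 and 0.0791 (edgeR or DESeq2). Leaving out replicate 1 with Dox was among them for all 3. GNG7 also lost its call with DESeq2 and without replicate 1 or 3 without Dox or replicate 3 with Dox. ARRB1 also lost it with DESeq2, with scaling by library totals alone and without replicate 1 or 2 without Dox. ARRB2 also lost it with scaling by library totals alone and without replicate 2 or 3 without Dox or replicate 2 with Dox.

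Of 18 tested genes of the cAMP arm, 3 were higher and 3 lower (33.3%, against 25.5% of all tested genes). CREB5, a transcription factor that binds cAMP response elements, rose from 29.6 ± 2.66 to 67.1 ± 5.62 CPM (SD, n = 3 each). On the log2 scale this was 1.18 (SE 0.15; edgeR adjusted p = 1.396e-05). CREB3L1, a membrane-bound factor of the same family, fell from 38.6 ± 6.03 to 12.7 ± 3.29 CPM, -1.56 on the log2 scale (SE 0.20; edgeR adjusted p = 2.274e-05). PRKACB, a catalytic subunit of protein kinase A, had 0.61 and CREB3L2 had 0.40, while CREB3L4 had -0.83 and PRKAR2A, a regulatory subunit, -0.35. PRKACB lost its call in 1 of 15 alternatives, without replicate 1 with Dox (adjusted p = 0.0739, edgeR). CREB3L2 lost it in 5, with no filter and without replicate 1 or 2 of either condition (at most 0.129), and PRKAR2A in 9, among them without any 1 library but replicate 3 without Dox (at most 0.174).

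Of 12 tested genes of the PI3K, Akt and nitric oxide arm, 1 was higher and 0 lower (8.33%, against 25.5% of all tested genes). The gene called was PLCB4, a phospholipase gene, with 0.38 on the log2 scale. That call was lost in 6 of 15 alternatives, with no filter and without any 1 library but replicate 3 with Dox (adjusted p of at most 0.144, edgeR). Of 23 tested Ras and MAPK genes, 2 were higher and 1 was lower (13%, against 25.5% of all tested genes). The adaptor gene SHC2 had 0.95, the exchange factor gene SOS2 0.68 and the kinase gene MAPK12 -0.69 on the log2 scale, each past the threshold in every alternative.

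The output genes are those on which relaxin is known to act in matrix, vessel and fibrosis. Of 17 tested, 5 were higher and 3 lower (47.1%, against 25.5% of all tested genes). Whether relaxin acted on them here was not tested. TIMP1, an inhibitor of matrix metalloproteinases, rose from 94.0 ± 17.3 to 199 ± 15.0 CPM (SD, n = 3 each). On the log2 scale this was 1.09 (SE 0.14; edgeR adjusted p = 1.981e-05). TIMP2 had 1.35, and TGFB1, the fibrosis cytokine, had 2.08 from 2, 4 and 5 reads to 16, 10 and 35. COL4A2, a collagen of basement membranes, fell from 9.96 ± 1.25 to 1.99 ± 0.408 CPM, -2.28 on the log2 scale (SE 0.32; edgeR adjusted p = 5.078e-05). NFKBIA had -0.67 and FOS -1.23. Relaxin is best known for lowering collagen and raising metalloproteinases in connective tissue. Of the collagen genes tested, COL4A2 was lower and COL1A1 was higher, and the metalloproteinase inhibitor genes TIMP1 and TIMP2 were both higher. Of the 4 metalloproteinase genes listed none was tested. MMP1, MMP2 and MMP13 were at 0 reads in every library, and MMP9 had 2, 0 and 4 reads without Dox and 5, 2 and 7 with Dox. COL1A1 and SMAD3, with 1.22 and 0.81, were also called, and like FOS they lost the call in 6 alternatives each, with an adjusted p of at most 0.166, 0.143 and 0.147 in turn. For all 3 genes these were DESeq2, the deposited normalized values, and the fits without replicate 3 without Dox or without replicate 1 or 3 with Dox, and also without replicate 2 without Dox for COL1A1 and SMAD3 and replicate 1 without Dox for FOS.

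**Figure D5:**
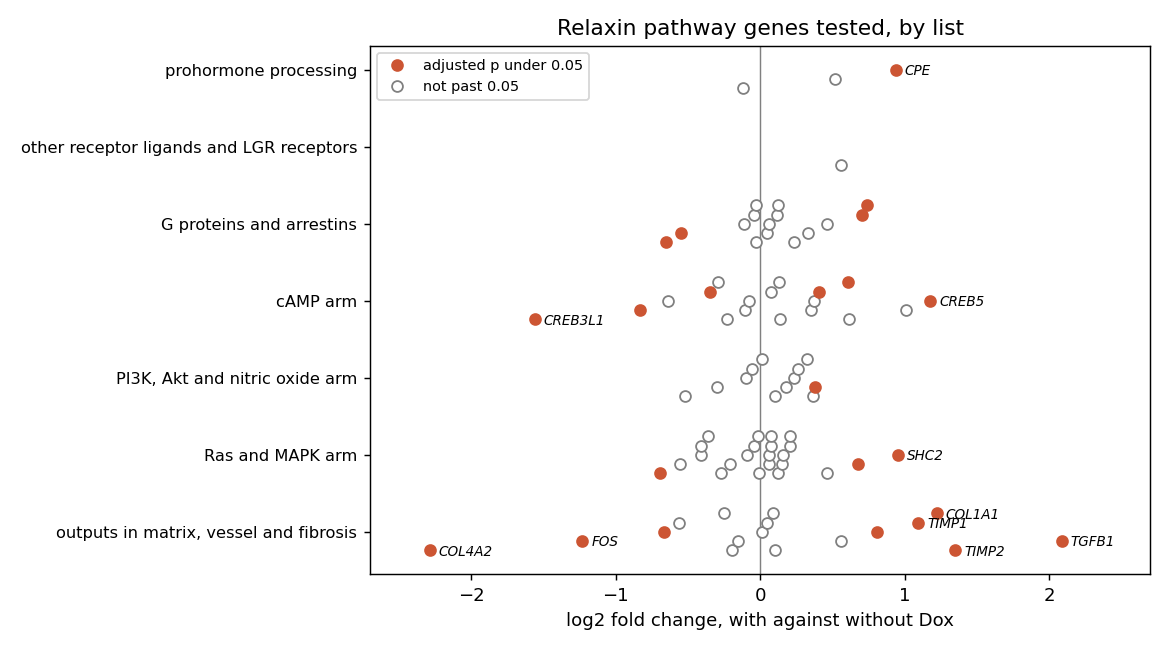
Log2 fold change with against without Dox (x axis) of the 89 tested relaxin pathway genes, 1 point a gene, in rows by list (y axis, points spread within a row for view). Filled orange points passed an adjusted p of 0.05, and open grey points did not. The called genes lie on both sides of 0, from COL4A2 at -2.28 to TGFB1 at 2.08.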

How the data were processed

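Poly(A)-primed 3ʹ libraries of 22Rv1-ABHD5 cells, 3 without Dox and 3 with Dox, were sequenced as 100-base single-end reads. STAR alignments to hg38 were turned by the authors into a deposited table of raw counts, with 1 row a gene symbol and 1 column a library. The submitters' processing notes also name CASAVA 1.8.2, FastQC, HTSeq and edgeR. The labels name the FWD kit and the paper's methods the REV kit of the same maker, and the use of strand in counting is not given in the sources used here. A second kind of deposited file holds normalized signal, 1 file a library, made in a way the sources used here do not give; it served as an alternative, without the 27 of 27475 rows whose names differ between the files. Reads on no gene (32.5% to 39.5% of those listed) and ambiguous reads (3.05% to 3.37%) were left out.

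Counts were fitted with edgeR 4.0.16 in R 4.3.3, using TMM factors and the default filterByExpr. Genes were called at a quasi-likelihood p that was under 0.05 after Benjamini-Hochberg correction over 12233 genes. A standard error (SE) is the log2 fold change over the root of the F statistic. RLN1 was outside the filter, so its summed reads were compared in place of the planned fit. Fits were tested on simulated data. The chi-square per degree of freedom between replicates was 4.07 to 11.3, beyond sampling noise, so each library counted as 1 sample. Limma 3.58.1 and DESeq2 1.42.0 served as alternatives, and Biopython 1.88 aligned the sequences; proteins were not compared here. Gene positions were read from GENCODE 44 (hg38), which held 24243 of the 27470 symbols. Promoter windows are those of RefSeq, which gave 10 of 11 family genes; INSL3 had none in the table used.

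The members, pathway lists, markers and neighbour distance were chosen with earlier results of these data known. Named were the family, ABHD5, the tested neighbours, the 5 genes most like RLN2, all genes of lists of 8 or fewer, and in each other list the 3 called genes that led each direction by adjusted p. Neighbours beyond 500000 bases, COL1A1, SMAD3, the metalloproteinase genes, PHGR1 and the named markers were added after their values were seen. Some planned markers are not reported here.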

Additional observations from a re-analysis of the deposited data

How the results depend on the processing

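The ABHD5 log2 fold change stayed past the threshold, at 0.81 to 1.06 with each library left out and 0.89 to 1.03 under 9 other settings. RLN2 was at 5.86 to 7.86 with each library left out (7.86 without replicate 3 without Dox, which holds 8 of its 10 reads in that condition) and at 5.94 to 6.64 otherwise. RLN1, on 9 reads, ranged over 0.64 to 2.08 and 0.48 to 1.62, and the sum of both copies over 5.61 to 7.33 (7.33 without replicate 3 without Dox) and 6.03 to 6.39. Genes called numbered 3125, 2181 to 3112 with a library left out and 2632 (DESeq2) to 3537 otherwise. Pathway genes higher numbered 14, 10 to 17 and 11 to 21, and those lower 9, 5 to 9 (5 without replicate 1 with Dox) and 6 to 11; the cause was not tested. Neighbours called numbered 1 with each library left out in turn (1 to 1), 2 under library totals alone and, by construction, 5 within 1000000 bases. Scaling by library totals alone shifted the median over all genes from 0.016 to 0.138 (log2), and 65.7% of calls were then higher, in place of 46.4%.

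The main fit did not pair libraries by replicate number. Deviations of libraries with the same number from their condition's mean had r across genes of -0.00958, 0.229 and 0.0856. Libraries of unlike number were not compared in this way, so these values do not settle whether the numbers mark pairs. The standard error of the RLN2 log2 fold change was 0.51 in the main fit and 0.27 with the replicate block. With the replicate block, 3537 genes, 17 pathway genes higher and 10 lower, and 1 neighbour were called, and the log2 fold changes were 0.89 for ABHD5, 6.64 for RLN2, 6.39 for the sum and, without a filter, 1.20 for RLN1. All reads listed as library size, and that RLN1 fit, were added after the data were seen. With at least 10 counts in every library, RLN2, RLN1 and their sum could not be fitted. Depth limits the members other than RLN2, at 0 to 9 reads in all.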
